A study of Mus musculus with 10 samples.

Results

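The whole endothelial to haematopoietic transition was described as the difference between the first and the last population sorted from it, in 4 of the 10 RNA-seq libraries of the series. These were the 2 libraries of haemogenic endothelium 1 (HE1) and the 2 libraries of haematopoietic progenitors (HP), grouped by their stage labels. HE1 cells were sorted as KIT+ TIE2+ CD41- cells and HP cells as KIT+ TIE2- CD41+ cells from the same kind of culture. Every stage came from HM-1, 1 mouse embryonic stem (ES) cell line built for gene targeting, with no added mutation or drug named in the labels. The cells spent 3 days in serum as embryoid bodies, were enriched for FLK1+ cells on a magnetic column (the haemangioblast stage, HB) and were then grown for 2.5 days as a blast culture with VEGF, interleukin-6 and medium conditioned by D4T endothelial cells. The sorted population between them, HE2 (KIT+ TIE2+ CD41+), and the HB and ES stages, also 2 libraries each, served only to place the levels. The RNA was enriched for nuclear RNA, depleted of ribosomal RNA and sequenced with its strand kept, so the values lean towards transcripts that are being made or processed. The libraries held between 24920434 (HE1 replicate 1) and 58782055 (ES replicate 1) gene-assigned counts.

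Haemogenic endothelium is a vessel lining that gives rise to blood. Its cells first carry junctions, a basement membrane and receptors for VEGF and Notch ligands, then round up, detach and switch to blood programmes under RUNX1. PU.1, encoded by Spi1, opens the myeloid programme and KLF1 the erythroid programme, while TYROBP is a signalling adaptor of myeloid receptors and TEAD1 a DNA-binding partner of the Hippo effectors YAP and TAZ.

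The libraries carried the markers of their labelled stages, and HE1 replicate 2 stood apart from replicate 1. The 3 sort antigens, which are no finding because they chose the cells, read 564 and 294 CPM (counts scaled to a common library size) in HE1 replicates 1 and 2 and 61.5 and 64.1 CPM in HP replicates 1 and 2 for Tek (TIE2). Itga2b (CD41) read 227 and 127 CPM in HE1 and 400.2 and 367 CPM in HP, and Kit 146 and 72.9 CPM and 363 and 251 CPM. Without Tek, 9 endothelial markers summed to 4558 and 2665 CPM in HE1 and 982 and 992 CPM in HP, with none at 0 in either stage. Without Itga2b, 9 blood progenitor markers summed to 94.3 and 80.6 CPM in HE1 and 1169 and 949 CPM in HP. HE1 replicate 2 thus held fewer endothelial transcripts than replicate 1, and it held more of other kinds. The 12 mesenchymal and paraxial markers summed to 278 and 814 CPM in HE1 and 487 and 249 CPM in HP, and 7 of 12 were lower. The 14 cardiac and smooth muscle markers gave 844 and 1045 CPM in HE1 and 623 and 329.6 CPM in HP, with 1 of them at 0 in each HP library, and 7 of 13 tested were lower. Of 8 pluripotency markers, the 7 other than Klf2, which endothelium also expresses, gave 8.41 and 97.6 CPM in HE1, 8.62 and 2.26 CPM in HP and 3479 and 3440.0 CPM in ES cells. All 8 were lower in HP. Without HE1 replicate 2 the log2 fold change of HP over HE1 went from -3.71 to -0.57 for Nanog and from -3.66 to -0.82 for Sox2. It went from -2.91 to -0.52 for Pou5f1, -3.19 to -0.51 for Zfp42, -3.82 to -0.57 for Dppa5a and -2.37 to 0.16 for Tdgf1. Esrrb gave -1.41 and Klf2 -2.61 in that fit. Where one of these lists moved with a result, its part in the result was not tested. Within HE1 the 2 libraries correlated at 0.967 on the log2 CPM scale across genes, the lowest of the 5 stages.

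**Figure D1:**
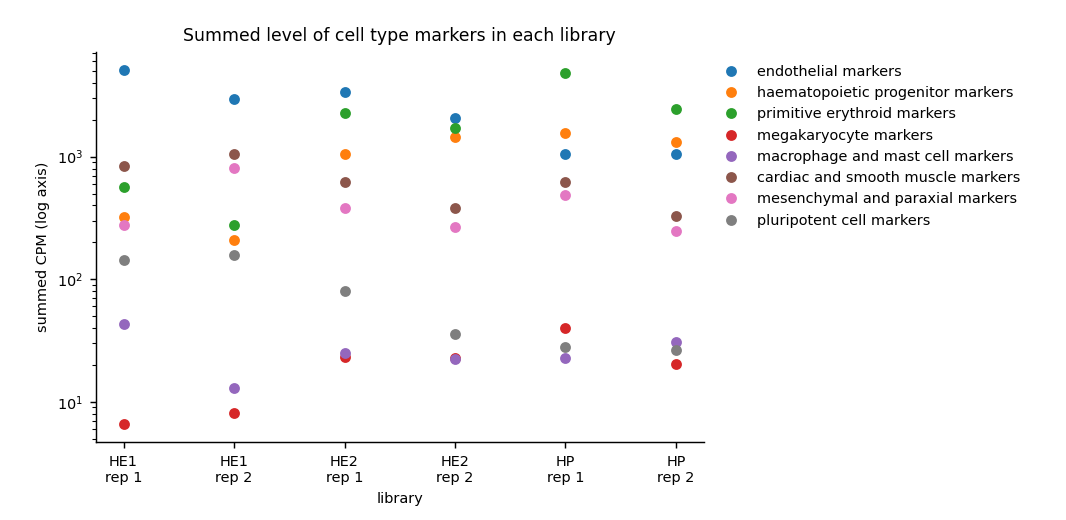
Summed CPM (log axis) of the marker genes of 8 cell types in each HE1, HE2 and HP library, 1 point per library and cell type, with the sort antigens Tek and Itga2b kept in their sums. The endothelial sum stood between 2960 and 5121 CPM in HE1 and between 1044 and 1056 CPM in HP, and HE1 replicate 2 had the highest mesenchymal sum of the 6 libraries, 814 CPM.

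A gene was called where edgeR's quasi-likelihood test on the counts gave a Benjamini-Hochberg adjusted p below 0.05 together with a 2-fold or larger change, in 1 fit of all 10 libraries. Of 22596 genes tested, 16.5% were called between HP and HE1, 5.35% higher in HP and 11.2% lower, and the median log2 fold change of all genes was -0.02. The numbers called, 1210 higher and 2525 lower, were 770 and 1135 without HP replicate 1, 913 and 1618 without HE1 replicate 2, and 1777 and 3683 without HE1 replicate 1. In bulk RNA, fewer cells of a type and less RNA per cell cannot be told apart. The labels do not say how the replicates were made, the study describes its replicates for these cell types as biologically independent, and p-values measure the spread between these libraries. Lists of genes with known roles were set against those shares. The lists were written with earlier results of these data known, so their counts describe the change and do not test it.

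Genes of the endothelium lists were mostly lower in HP and genes of the blood lists mostly higher. Of 356 tested genes in 10 endothelium lists 186 were lower in HP and 11 higher, with a median log2 fold change of -1.24. Of 352 tested genes in 9 blood lists 220 were higher and 10 lower, with a median of 2.06. Without HE1 replicate 2 the counts were 171 endothelium genes lower and 194 blood genes higher, and without HE1 replicate 1 they were 187 and 227. Without HP replicate 1 they were 149 and 177. Of 396 blood genes found in the files, 44 had too few counts to be tested, among them the granule genes Elane and Ctsg and the complement genes C1qa, C1qb and C1qc.

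**Figure D2:**
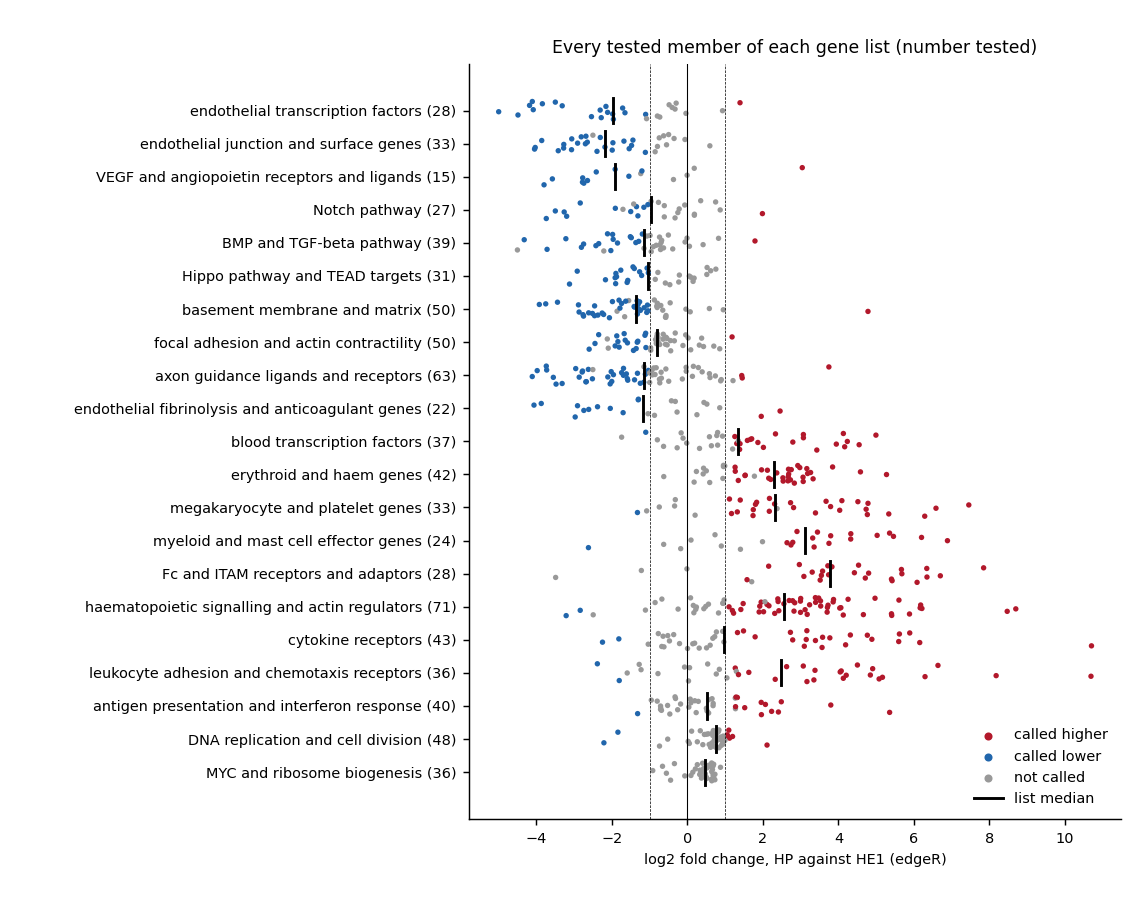
Log2 fold change of HP against HE1 (edgeR) of every tested member of the 21 lists, 1 point per gene, with called genes in colour, the list median as a bar and dashed lines at 2-fold. The medians of the 10 endothelium lists lie between -2.18 and -0.80, and those of the 9 blood lists between 0.51 and 3.79.

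Among the transcription factors of endothelium 18 of 28 tested genes were lower in HP and 1 was higher. Sox17, a SOXF factor of arterial and haemogenic endothelium, was at 96.3 and 77.2 CPM in the 2 HE1 libraries, 31.0 and 8.38 CPM in HE2 and 1.85 and 7.88 CPM in HP (-4.18 ± 0.68, the log2 fold change of HP over HE1 with its SE, adjusted p = 0.00195). Its relative Sox7 went from 161 and 87.7 to 2.92 and 11.9 CPM (-4.08 ± 0.71) and Sox18 from 110.3 and 60.1 to 12.2 and 17.2 CPM (-2.54 ± 0.37). All 3 SOXF genes fell. The HE2 libraries lay between the stages for Sox17 and for Sox7, at 54.0 and 13.8 CPM, while for Sox18, at 92.0 and 44.8 CPM, HE2 replicate 1 stood above HE1 replicate 2. Foxc2, a forkhead factor of vessels, went from 10.9 and 10.7 to 0.160 and 0.540 CPM (-5.0 ± 0.89) and the VEGF-induced repressor Bcl6b from 127 and 97.4 to 1.55 and 11.7 CPM (-4.11 ± 0.82). Some factors that blood also uses did not follow. Tal1, which both endothelium and blood need, was the 1 member that rose, from 185 and 109 to 422 and 351 CPM (1.39 ± 0.25, adjusted p = 0.00294). Lmo2, its partner, read 58.7 and 37.4 CPM in HE1 and 86.7 and 96.5 CPM in HP (0.93 ± 0.21, under the 2-fold limit, but 1.32 and called without HE1 replicate 1 and 1.02 and called without HP replicate 1), and the ETS factors Fli1 and Ets2 gave -0.40 ± 0.22 and -0.30 ± 0.34, neither called. Without HE1 replicate 1 their values were 0.09 and 0.61. Leaving out 1 library moved the fold of some called genes by over 1.5 times. For those named here or below, the log2 fold changes without each library of that stage are given, except for sort antigens and pluripotency markers. Sox17 gave -3.45 and -5.53, Sox7 -3.37 and -5.39, Foxc2 -4.30 and -6.03, and Bcl6b -3.25 and -6.16 without HP replicates 1 and 2 in turn.

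Genes for the contacts between endothelial cells fell as well. Of 33 junction and surface genes 23 were lower, and the other 10 were not called. Cdh5, the VE-cadherin of endothelial adherens junctions, fell from 1430.0 and 797 to 118 and 179 CPM (-2.91 ± 0.39, adjusted p = 0.000840). Esam, a tight junction adhesion molecule, fell from 149.9 and 131 to 17.7 and 27.1 CPM (-2.65 ± 0.38) and the connexin Gja4 from 70.8 and 63.0 to 4.10 and 8.48 CPM (-3.42 ± 0.46). Emcn, a sialomucin of the luminal surface, fell from 13.7 and 6.14 to 0.616 and 0.572 CPM (-4.05 ± 0.69). The catenins, which bind cadherins at the junction, were not called. Ctnna1 read -0.85 ± 0.18, Ctnnd1 -0.74 ± 0.17 and Ctnnb1 -0.55 ± 0.17 on the log2 scale, each under the 2-fold limit, and 61.2% of the exon bases of Ctnnd1 are shared with another annotated gene on its strand. Pecam1 (CD31) fell from 745 and 491 to 238 and 217 CPM (-1.44 ± 0.23), so HP kept a clear level of it. Gja4 gave -2.96 and -4.01 without HP replicates 1 and 2 in turn. Emcn gave -3.33 and -4.51 without HE1 replicates 1 and 2 in turn.

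Of 15 genes for VEGF and angiopoietin signalling 10 were lower and 1 was higher. Where a list holds a sort antigen, here or elsewhere, it was kept in the count. The sort set the direction of Tek and Itga2b. Among the receptors, Kdr, the main VEGF receptor and the FLK1 antigen by which the culture had been started, went from 1264 and 718 to 334 and 344 CPM (-1.55 ± 0.28). Ptprb, the phosphatase that restrains TIE2 and VE-cadherin signalling, fell further, from 602 and 485 to 18.9 and 59.6 CPM (-3.79 ± 0.53, adjusted p = 0.000981). Among the ligands, Vegfa fell from 138 and 108 to 15.2 and 20.7 CPM (-2.78 ± 0.37). Angpt1, the activating ligand of TIE2, was the member that rose, from 4.25 and 5.58 CPM in HE1 to 12.8 and 22 CPM in HE2 and 47.3 and 33.9 CPM in HP (3.04 ± 0.36, adjusted p = 0.000431). Its level was highest in the stage that was sorted for lack of the receptor. Ptprb gave -3.17 and -4.83 without HP replicates 1 and 2 in turn.

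In the Notch pathway 11 of 27 genes were lower and 1 higher. The receptor Notch1 fell from 655 and 465 to 56.2 and 101 CPM (-2.84 ± 0.36, adjusted p = 0.000618), and the target Hey2, a repressor of arterial endothelium, from 21.6 and 13.1 to 1.07 and 2.03 CPM (-3.50 ± 0.50). Notch4, the endothelial receptor, went from 149.9 and 181 to 5.65 and 19.4 CPM (-3.74 ± 0.77) and was not called without HP replicate 1 (-3.08). Notch2 differed from both, at 129.8 and 117 CPM in HE1 and 133 and 148 CPM in HP (0.19 ± 0.14), and Adam10, the protease that cleaves Notch receptors, read 0.35 ± 0.18. Neither was called. Dtx4, an E3 ligase of the Deltex family, rose from 5.17 and 5.12 to 16.1 and 24.7 CPM (1.99 ± 0.27). The 11 lower genes of the list became 6 without HP replicate 1. Notch4 gave -3.08 and -4.85 without HP replicates 1 and 2 in turn.

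The promoters of Emcn, Notch4 and Hey2 are shown because these genes fell and their promoters hold letters known to be bound by TEAD, ETS or RBPJ, the DNA-binding partner of Notch. The sequences are from RefSeq (GRCm38.p6), 250 bases before to 50 after the start, printed 5′ to 3′ along the gene, and 13069 of the 22596 tested genes matched one. Capitals mark TEAD letters (GGAATG), ETS letters (CCGGAA or AGGAAG) and RBPJ letters (GTGGGAA), on either strand, and a match describes letters, not binding. In Hey2 a TEAD and an RBPJ match overlap.
Emcn, chr3:137340828-137341127, plus strand: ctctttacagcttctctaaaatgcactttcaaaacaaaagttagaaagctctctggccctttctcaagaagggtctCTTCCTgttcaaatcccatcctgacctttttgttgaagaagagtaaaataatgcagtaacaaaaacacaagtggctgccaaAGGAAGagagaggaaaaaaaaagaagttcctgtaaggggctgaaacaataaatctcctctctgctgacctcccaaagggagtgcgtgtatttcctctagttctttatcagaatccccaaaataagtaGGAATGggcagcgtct
Notch4, chr17:34564045-34564344, plus strand: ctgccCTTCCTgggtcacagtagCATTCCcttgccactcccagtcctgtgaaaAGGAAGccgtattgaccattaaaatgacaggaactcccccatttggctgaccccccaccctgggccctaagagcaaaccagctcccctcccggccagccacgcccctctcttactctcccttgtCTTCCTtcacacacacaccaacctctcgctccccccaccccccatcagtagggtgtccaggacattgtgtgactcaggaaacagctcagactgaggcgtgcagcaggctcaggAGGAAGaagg
Hey2, chr10:30842734-30843033, minus strand: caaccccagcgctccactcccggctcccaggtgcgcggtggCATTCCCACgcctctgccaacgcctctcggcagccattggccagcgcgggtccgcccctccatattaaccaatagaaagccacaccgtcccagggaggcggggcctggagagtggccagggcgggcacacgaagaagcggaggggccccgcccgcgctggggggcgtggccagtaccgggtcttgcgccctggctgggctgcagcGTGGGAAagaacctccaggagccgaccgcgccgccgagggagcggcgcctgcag

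TEAD letters stood in 20% of the 130 promoters of endothelium-list genes that fell, in 12.6% of all 13069 promoters and in 8.62% of the 174 promoters of blood-list genes that rose. RBPJ letters stood in 10% of the endothelium-list promoters that fell against 6.2% of all. ETS letters were no more frequent in them, at 43.9% against 50.2% of all. Over all 1524 promoters of genes lower in HP, inside or outside the lists, the shares were 15.2% for TEAD, 8.07% for RBPJ and 41.3% for ETS letters. No test was made of these shares.

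In the Hippo pathway, which carries information on cell shape and stiffness, 16 of 31 genes were lower and the other 15 were not called. Tead1 fell from 262 and 271 CPM in HE1 to 131 and 86.5 CPM in HE2 and 86.8 and 91.7 CPM in HP (-1.58 ± 0.18, adjusted p = 0.000420), and HE2 replicate 2 already stood at the HP level. Tead1 lies on chromosome 7 at 112679318 to 112906807 (mm10). Ccn2, a classical target of YAP and TEAD, fell from 184 and 242 to 55.6 and 39.0 CPM (-2.17 ± 0.45). The angiomotin Amotl1, which binds YAP, fell from 259 and 217 to 27.4 and 35.7 CPM (-2.92 ± 0.40) and the giant cadherin Fat4 from 215 and 101 to 11.3 and 25.1 CPM (-3.12 ± 0.54). Amot, a relative of Amotl1, did not follow it, at 313 and 193 CPM in HE1 and 323 and 250.2 CPM in HP (0.18 ± 0.25, not called, and -0.13 without HE1 replicate 2). Mob1a, a co-activator of the LATS kinases, read 0.52 ± 0.21. Of the 16 falls in this list, 3 were of at least 4-fold. Fat4 gave -2.64 and -3.78 without HP replicates 1 and 2 in turn. Fat4 gave -2.45 and -3.57 without HE1 replicates 1 and 2 in turn.

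Of 39 BMP and TGF-beta genes 17 were lower and 1 higher. Bmp6 fell from 194 and 182 to 3.83 and 15.2 CPM (-4.32 ± 0.72, adjusted p = 0.00216), the endothelial BMP receptor Acvrl1 (ALK1) from 163 and 92.2 to 5.65 and 13.9 CPM (-3.71 ± 0.65), and the target Id3 from 110.2 and 78.7 to 11.9 and 15.1 CPM (-2.81 ± 0.33). The 1 that rose was Tgfb1, from 93.4 and 75 to 330.3 and 252 CPM (1.79 ± 0.22, adjusted p = 0.000579). The TGF-beta receptor Tgfbr1 and the shared effector Smad4 gave 0.83 ± 0.18 and -0.50 ± 0.14, both under the 2-fold limit, which Tgfbr1 passed without HE1 replicate 1 (1.11). Bmp6 gave -3.61 and -5.60, and Acvrl1 -3.18 and -4.48 without HP replicates 1 and 2 in turn.

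Of 50 genes for basement membrane and matrix 32 were lower and 1 higher. Fbn1, the fibrillin of elastic fibres, fell from 1206 and 759 to 48.2 and 133 CPM (-3.44 ± 0.49, adjusted p = 0.00101). Col4a1, the collagen of the basement membrane, fell from 3348 and 2544 to 371 and 591 CPM (-2.61 ± 0.42), and the laminin chain Lama4 from 166 and 109 to 23.6 and 29.6 CPM (-2.37 ± 0.33). The laminin chain Lamc1 and the proteoglycan Agrn gave -0.70 ± 0.15 and -0.87 ± 0.24, under the 2-fold limit, which Agrn passed without HP replicate 2 (-1.16). Col1a1, a fibroblast collagen, belongs to the mesenchymal markers and was not called, at 176 and 670.3 CPM in HE1 and 386 and 187 CPM in HP, and its log2 fold change went from -0.56 ± 0.50 to 0.70 without HE1 replicate 2 and to -1.20, a call, without HE1 replicate 1. The 1 matrix gene that rose was Mmrn1, the multimerin that platelets store: 0.967 and 0.132 CPM in HE1, 15.6 and 20.3 CPM in HE2 and 22.2 and 6.70 CPM in HP (4.78 ± 0.77). Its endothelial relative Mmrn2 moved the other way, from 149.6 and 130.5 to 2.87 and 15.9 CPM (-3.92 ± 0.83). Fbn1 gave -2.87 and -4.33, Mmrn1 3.68 and 5.42, and Mmrn2 -3.13 and -5.59 without HP replicates 1 and 2 in turn. Mmrn1 gave 6.76 and 3.90 without HE1 replicates 1 and 2 in turn.

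Focal adhesion and contractility genes were the least reduced of the endothelium lists, with 17 of 50 lower, 1 higher and a median log2 fold change of -0.80. The collagen receptor subunit Itga1 fell from 208 and 154 to 23.6 and 36.3 CPM (-2.60 ± 0.42), the focal adhesion protein Tns2 from 94.0 and 76.3 to 12.4 and 18.9 CPM (-2.45 ± 0.37) and Cavin1, which coats caveolae, from 481 and 369.5 to 104 and 122 CPM (-1.91 ± 0.28). Proteins of the general actin machinery were not called in 3 cases. Non-muscle myosin Myh9 read 1579 and 1684 CPM in HE1 and 1509 and 1500.5 CPM in HP (-0.12 ± 0.17) and filamin Flna 2154 and 1809 CPM and 1475 and 1435 CPM (-0.45 ± 0.20). Talin Tln1, which activates integrins in every cell, gave 0.70 ± 0.18, under the 2-fold limit, and Lims1 (PINCH1) rose from 195 and 150.0 to 395 and 389 CPM (1.18 ± 0.16).

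Axon guidance genes, which vessels use to steer sprouts, were lower in 32 of 63 cases and higher in 3. Sema3g, a secreted semaphorin, fell from 10.8 and 10.1 to 0.228 and 1.02 CPM (-4.11 ± 0.66), and Efnb2, the arterial ephrin, from 249.9 and 222 to 28.5 and 40.0 CPM (-2.79 ± 0.39). Robo4, the endothelial roundabout receptor, fell from 91.1 and 65.9 to 1.25 and 8.90 CPM (-3.98 ± 0.89) and was not called without HP replicate 1 (-3.13). Sema4d, the semaphorin of leukocytes (CD100), was the largest rise among these genes, from 7.73 and 8.19 CPM in HE1 through 38.2 and 52.4 CPM in HE2 to 119 and 95.4 CPM in HP (3.75 ± 0.20, adjusted p = 1.84e-05). Epha7 rose from 9.33 and 8.32 to 27.4 and 20.9 CPM (1.45 ± 0.20). The semaphorin receptors Plxna1, Plxnb2 and Plxnc1 were not called, with log2 fold changes of -0.49, -0.73 and -0.57. Without HP replicate 1 the list held 21 lower genes. Sema3g gave -3.34 and -5.48, and Robo4 -3.13 and -5.95 without HP replicates 1 and 2 in turn.

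Of 22 endothelial genes for fibrinolysis, anticoagulation and vessel tone 11 were lower and 2 higher. Nos3, the endothelial nitric oxide synthase, fell from 142 and 90.1 to 1.5 and 12.6 CPM (-4.06 ± 0.79; -6.25 without HP replicate 2), Edn1 (endothelin) from 156 and 98 to 5.56 and 11.9 CPM (-3.87 ± 0.57) and Thbd (thrombomodulin) from 66.8 and 30.5 to 5.43 and 6.99 CPM (-2.97 ± 0.51). Outside the list, Ace, the angiotensin-converting enzyme of the endothelial surface and one of the 10 largest falls, went from 9.08 and 9.37 to 0.160 and 0.540 CPM (-4.77 ± 0.77). Ptgs1, the cyclooxygenase that platelets use to make thromboxane, rose from 12.3 and 7.13 to 59.7 and 46.4 CPM (2.46 ± 0.31, adjusted p = 0.000618). Nos3 gave -3.19 and -6.25, Edn1 -3.40 and -4.5, and Ace -4.07 and -5.80 without HP replicates 1 and 2 in turn. Thbd gave -2.27 and -3.43 without HE1 replicates 1 and 2 in turn.

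Of 37 blood transcription factors 20 were higher in HP and 1 was lower. Spi1 rose from 1.85 and 2.48 CPM in HE1 to 26.3 and 65.9 CPM in HE2 and 82.2 and 56.6 CPM in HP (4.99 ± 0.47, adjusted p = 0.000142). Klf1 was at 3.70 and 2.87 CPM in HE1, 13.9 and 17.6 CPM in HE2 and 42.5 and 28.0 CPM in HP (3.43 ± 0.32). Spi1 lies on chromosome 2 at 91082390 to 91115756 and Klf1 on chromosome 8 at 84901928 to 84905295 (mm10). Nfe2, a factor of platelet and globin genes, rose from 10.0 and 3.83 to 194 and 127 CPM (4.55 ± 0.47), Ikzf1 (Ikaros) from 18.5 and 9.08 to 278 and 241 CPM (4.24 ± 0.42) and Gfi1b, a repressor of endothelial genes, from 6.05 and 3.20 to 82.1 and 59.4 CPM (3.94 ± 0.38). Other regulators were abundant in HE1 already. Zfpm1, the GATA1 cofactor FOG1, read 336 and 281 CPM in HE1 and 472 and 453 CPM in HP (0.59 ± 0.15) and the chromatin protein Hmga2 559 and 312 CPM and 638 and 450.3 CPM (0.32 ± 0.27), neither called. Bach2, a repressor of plasma cell and myeloid genes, was the member that fell, from 79.5 and 68.3 to 36.1 and 32.7 CPM (-1.10 ± 0.19), and without HE1 replicate 1 it was not called (-0.96). Nfe2 gave 5.41 and 4.0, and Ikzf1 4.86 and 3.80 without HE1 replicates 1 and 2 in turn.

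Of 42 erythroid and haem genes 30 were higher and the other 12 not called. The embryonic globin Hbb-bh1 was at 279 and 136 CPM in HE1, 1224 and 1062 CPM in HE2 and 2620.4 and 1553 CPM in HP (3.33 ± 0.34, adjusted p = 0.000217). Embryonic Hba-x went from 188 and 86.6 to 1518 and 642 CPM (2.98 ± 0.46), and the adult-type Hba-a2, whose reads can be lost to its near-identical copy Hba-a1, from 0.168 and 0.693 to 21.5 and 13.3 CPM (5.27 ± 0.66). The erythropoietin receptor Epor rose from 7.15 and 4.13 to 37.2 and 37.2 CPM (2.73 ± 0.27). Fech, the haem synthesis enzyme that inserts the iron, and Alad, an early one, gave 0.99 ± 0.12 and 0.96 ± 0.19, just under the 2-fold limit. Fech was called without the filter (1.00), with sizes that leave out the 20 genes with the most counts (1.01) and without HP replicate 1 (1.03) or HE1 replicate 1 (1.03), and Alad without HP replicate 2 (1.24) or HE1 replicate 1 (1.02). HP replicate 1 held more globin than replicate 2. The 8 primitive erythroid markers summed to 561 and 276 CPM in HE1 and 4829 and 2459 CPM in HP, and the list held 27 higher genes without HP replicate 1. Hba-x gave 2.24 and 3.48 without HP replicates 1 and 2 in turn. Hbb-bh1 gave 3.96 and 2.90, Hba-x 3.66 and 2.52, and Hba-a2 4.67 and 6.66 without HE1 replicates 1 and 2 in turn.

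Megakaryocyte and platelet genes were higher in 26 of 33 cases and lower in 1. Itgb3, the beta chain that pairs with CD41, rose from 97.0 and 68.4 CPM in HE1 to 1065 and 1404 CPM in HE2 and 1572 and 1138 CPM in HP (4.03 ± 0.25, adjusted p = 2.50e-05). F13a1, the coagulation factor XIII subunit, rose from 1.22 and 0.198 to 30.2 and 24.7 CPM (5.33 ± 0.56). The purine receptors of platelets rose with them, P2rx1 from 13.8 and 4.92 to 185 and 131 CPM (4.09 ± 0.45) and P2ry1 from 42.2 and 31.5 to 104 and 79.9 CPM (1.32 ± 0.18). In HE2 P2ry1 read 120.4 and 123 CPM, above both HP libraries. Late platelet genes were low in HP, with Pf4 at 3.08 and 0.349 CPM and Gp9 at 2.53 and 1.11 CPM. In HE1 they had 1 and 4 counts in all, and the HP to HE1 ratio was 105 (95% exact interval 18.5 to 4168) for Pf4 and 26.2 (95% exact interval 10.0 to 97.5) for Gp9, covering counting error only. Neither was called without HP replicate 1 or without HE1 replicate 2. Pf4 gave log2 fold changes of 3.99 and 7.13, and Gp9 3.81 and 5.00, without HP replicates 1 and 2 in turn. Without HE1 replicates 1 and 2 in turn Pf4 gave 8.98 and 5.26, and Gp9 9.06 and 3.42. Thrombospondin Thbs1 and the thrombin receptor F2r were high in both stages, at 401 and 617 against 658 and 515 CPM and 1157 and 596 against 516 and 531 CPM, and were not called, although without HE1 replicate 2 F2r was called lower (-1.14). Vwf, which endothelium shares with platelets, fell by 1.32 on the log2 scale (SE 0.43), a call lost without any 1 of the 4 libraries (-1.34 to -1.28), under limma-voom (-1.32) and with total counts as sizes (-1.36). The list held 17 higher genes without HP replicate 1. F13a1 gave 7.11 and 4.49, and P2rx1 5.03 and 3.52 without HE1 replicates 1 and 2 in turn.

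Of 40 myeloid and mast cell effector genes 24 had counts enough to be tested. Of these, 16 were higher and 1 was lower. Mpo, the myeloperoxidase of primary granules, rose from 6.89 and 1.42 CPM in HE1 through 61.4 and 148 CPM in HE2 to 246 and 111 CPM in HP (5.46 ± 0.69, adjusted p = 0.000625). Ncf1, a subunit of the phagocyte oxidase, rose from 2.02 and 2.08 to 42.2 and 40.3 CPM (4.33 ± 0.29), while Cyba, a membrane subunit of the same oxidase that many cells express, read 25.8 and 31.1 CPM in HE1 and 30.1 and 20.3 CPM in HP (-0.18 ± 0.21, not called). Srgn, the granule proteoglycan serglycin, rose from 0.420 and 0.198 to 12.5 and 7.34 CPM (5.03 ± 0.57). Mrc1, a lectin that macrophages share with endothelium, was the member that fell, from 42.3 and 10.6 to 1.12 and 7.59 CPM (-2.62 ± 0.76), and it was not called with the replicate number as a term, a replicate block (-2.61, adjusted p = 0.0507), without HE1 replicate 1 (-1.27) or without HP replicate 1 (-1.79). It gave -4.55 without HP replicate 2. Of 11 markers of mature macrophages and mast cells 6 were tested, and apart from Mrc1 the other 5 were called higher, from at most 1.29 CPM in HE1. Csf1r, the receptor of macrophage growth factor, had the highest level of these 5 in HP, at 0.378 and 1.29 CPM in HE1 and 5.93 and 9.37 CPM in HP (3.17 ± 0.55), and the chemokine receptor Cx3cr1 went from 0.126 and 0 to 4.65 and 4.23 CPM. Adgre1 (F4/80) read 0.210 and 0.231 CPM in HE1 and 1.12 and 2.26 CPM in HP (2.90 ± 0.81), a call lost without any 1 of the 4 libraries (2.34 to 3.35). The 11 summed to 43.4 and 13.0 CPM in HE1, most of it Mrc1, and 22.8 and 31.0 CPM in HP. Mpo gave 4.78 and 5.93 without HP replicates 1 and 2 in turn. Mpo gave 7.0 and 4.70, Srgn 5.65 and 4.55, and Mrc1 -1.27 and -3.31 without HE1 replicates 1 and 2 in turn. In the same fits Csf1r gave 2.60 and 4.32, and Cx3cr1 10.3 and 5.10.

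Among the receptors that signal through tyrosine motifs 24 of 28 tested genes were higher, with a median log2 fold change of 3.79. Of the 37 genes found, 12 and 10 had no counts in HE1 replicates 1 and 2, against 3 and 4 in HP replicates 1 and 2. Genes near 0 in HE1 were tested only because other stages held enough counts. This median therefore leans upwards and is not ranked against other lists. Tyrobp (DAP12) rose from 0.168 and 0.132 CPM, which is 4 counts in each HE1 library, to 14.2 and 10.5 CPM in HP (6.35 ± 0.57). It lies on chromosome 7 at 30413760 to 30417585 (mm10). Cd244a, a receptor of the SLAM family, rose from 0.126 and 0.0990 to 12.3 and 11.5 CPM (6.70 ± 0.52, adjusted p = 6.06e-05), and the inhibitory receptor Lilrb4a, which shares 35.3% of its exon bases with another gene, from 2.4 and 0.759 to 29.8 and 51.3 CPM (4.71 ± 0.52). Cd244a had 3 counts in each HE1 library, so its ratio of HP to HE1 was 108 (95% exact interval 49.5 to 296), covering counting error only. Of the lymphoid adaptors, the B cell pair Cd79a and Cd79b and the T cell chain Cd247 read between 0.274 and 2.03 CPM in the HP libraries and were not called. Cd79b was called higher without the filter (1.72) and without HP replicate 2 (2.29), and Cd79a was called lower without HP replicate 2 (-2.80). Of the 37 genes listed, 9 had too few counts to be tested. Lilrb4a gave 5.76 and 4.08 without HE1 replicates 1 and 2 in turn.

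The signalling and actin proteins that such receptors use were higher in 51 of 71 cases and lower in 2. Btk, a kinase of B and myeloid cells, rose from 0.252 and 0.198 to 20.5 and 12 CPM (6.16 ± 0.51, adjusted p = 8.12e-05). Traf3ip3, a membrane adaptor of leukocytes, rose from 0.336 and 0.231 to 24.4 and 16.5 CPM (6.18 ± 0.53), and Ptprc (CD45), the phosphatase that licenses their kinases, from 1.14 and 0.363 to 38.6 and 47.3 CPM (5.88 ± 0.51). The actin regulator Coro1a rose from 1.60 and 1.75 to 62.0 and 43.3 CPM (4.97 ± 0.38) and the guanine exchange factor Vav1 from 4.88 and 4.13 to 57.6 and 42.5 CPM (3.48 ± 0.33). Vav3 and the kinase Lyn were not called. Vav3 read 97.1 and 63.0 CPM in HE1 and 93.7 and 93.2 CPM in HP (0.22 ± 0.20) and Lyn 99.4 and 57.2 CPM and 110.0 and 109 CPM (0.49 ± 0.21). Lyn gave 0.97 (adjusted p = 0.00259) without HE1 replicate 1, just under the 2-fold limit, and 0.14 without HE1 replicate 2. Ptprc gave 6.90 and 5.24 without HE1 replicates 1 and 2 in turn.

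The promoters of Klf1, Gfi1b, Mpo and Btk, which rose, are printed with GATA letters (AGATAA or TGATAA), PU.1 letters (GAGGAAG, which contain the ETS letters AGGAAG) and RUNX letters (TGTGGT or TGCGGT) in capitals, on either strand. Source, build and window are those given for Emcn.
Klf1, chr8:84901732-84902031, plus strand: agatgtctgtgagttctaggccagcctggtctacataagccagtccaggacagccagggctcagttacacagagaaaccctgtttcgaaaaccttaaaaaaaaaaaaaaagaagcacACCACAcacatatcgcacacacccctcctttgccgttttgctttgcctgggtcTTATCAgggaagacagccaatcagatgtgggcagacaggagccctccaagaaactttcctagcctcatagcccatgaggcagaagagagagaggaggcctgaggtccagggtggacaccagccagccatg
Gfi1b, chr2:28621933-28622232, minus strand: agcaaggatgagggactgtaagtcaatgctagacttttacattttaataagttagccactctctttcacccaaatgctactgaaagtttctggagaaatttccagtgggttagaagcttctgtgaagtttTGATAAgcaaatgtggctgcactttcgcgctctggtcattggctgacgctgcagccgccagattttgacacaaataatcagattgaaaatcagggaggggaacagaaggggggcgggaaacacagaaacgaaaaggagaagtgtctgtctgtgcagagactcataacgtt
Mpo, chr11:87793534-87793833, plus strand: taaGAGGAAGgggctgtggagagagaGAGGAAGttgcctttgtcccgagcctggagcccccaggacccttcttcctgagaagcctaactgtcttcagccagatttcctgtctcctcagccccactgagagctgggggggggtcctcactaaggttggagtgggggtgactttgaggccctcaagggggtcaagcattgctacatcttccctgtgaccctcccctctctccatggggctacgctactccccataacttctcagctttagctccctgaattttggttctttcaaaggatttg
Btk, chrX:134583091-134583390, minus strand: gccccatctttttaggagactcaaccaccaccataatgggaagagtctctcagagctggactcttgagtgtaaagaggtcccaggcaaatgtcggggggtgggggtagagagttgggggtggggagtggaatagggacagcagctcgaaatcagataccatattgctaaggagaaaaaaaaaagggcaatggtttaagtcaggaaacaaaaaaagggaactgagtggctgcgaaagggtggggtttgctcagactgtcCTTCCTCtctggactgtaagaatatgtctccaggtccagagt

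GATA letters stood in 32.2% of the 174 promoters of blood-list genes that rose, in 10.8% of those of endothelium-list genes that fell and in 10.9% of all promoters. PU.1 letters stood in 30.5%, 16.9% and 13.5% in the same order, and RUNX letters in 27%, 12.3% and 20.9%. The differences were smaller over all called genes, with 861 promoters higher and 1524 lower in HP. There GATA letters stood in 18.5% and 10.0%, PU.1 letters in 19.9% and 15.1%, and RUNX letters in 24.0% and 18.8%. The blood promoters also differed in make-up. Their median number of CG dinucleotides was 5 in 300 bases and their median GC content 53.3%, against 20 and 64% for the endothelium promoters and 19 and 60.3% for all. The part of base composition in these shares was not tested. KLF letters (GGGTGTG or GGGCGTG) stood in 21.3% of the blood-list promoters, 20.8% of the endothelium-list promoters and 21.6% of all. AP-1 letters (TGANTCA) gave 9.77%, 5.39% and 5.30% in that order, SOX letters (ACAATGG or ACAATAG) 4.02%, 3.08% and 3.43%, and E-box letters (CAGCTG or CAGATG) 36.2%, 23.9% and 25.7%. Over all called genes the E-box contrast was nearly absent, at 30.1% of the promoters higher in HP and 29.3% of those lower. The AP-1 difference was also smaller there. KLF letters gave 23.8% and 21.2% in the same order, and SOX letters 3.37% and 3.87%.

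Cytokine receptors rose in 21 of 43 cases and fell in 2. Csf3r, the receptor of G-CSF, rose from 0.799 and 0.561 CPM in HE1 to 14.8 and 18.1 CPM in HE2 and 24.3 and 15.7 CPM in HP (4.89 ± 0.42, adjusted p = 9.68e-05). Il18rap, a chain of the interleukin-18 receptor, rose from 0.504 and 0.264 to 22.8 and 22.1 CPM (5.89 ± 0.53) and Il10ra from 0.294 and 0.165 to 11.7 and 10.7 CPM (5.62 ± 0.52). Il6st (gp130), the signal chain of the interleukin-6 family, gave -0.77 ± 0.17 (called, just past 2-fold, without HE1 replicate 2), while Lifr, which pairs with it, fell from 616 and 443 to 88.4 and 135 CPM (-2.25 ± 0.28, adjusted p = 0.000606). The interleukin-4 receptor Il4ra (-0.64) and the interferon receptor Ifnar1 (-0.21) were not called.

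Among receptors of leukocyte adhesion and chemotaxis 22 of 36 were higher and 2 lower. Adgrg1 (GPR56), an adhesion receptor of blood stem cells, rose from 41.7 and 13.0 CPM in HE1 to 399 and 750.0 CPM in HE2 and 919 and 648 CPM in HP (4.85 ± 0.52). The integrin Itgam (CD11b), 68.7% of whose exon bases overlap another annotated gene, rose from 0.883 and 0.561 to 24.6 and 26.9 CPM (5.17 ± 0.35, adjusted p = 3.47e-05), and the chemokine receptor Ccr2 from 0.168 and 0.0660 to 11.3 and 11.8 CPM (6.64 ± 0.66). Ccr2 had 6 counts in all in HE1 and a ratio of 104 (95% exact interval 47.4 to 283), again for counting error only. S1pr1, the sphingosine phosphate receptor of endothelium and lymphocytes, fell from 158 and 111 to 38.3 and 38.8 CPM (-1.80 ± 0.25). Adgre5 (CD97) fell from 243 and 99.4 to 28.1 and 37.6 CPM (-2.38 ± 0.46) and was not called without HP replicate 1 (-2.18). It gave -1.57 and -2.89 without HE1 replicates 1 and 2 in turn. The hyaluronan receptor Cd44 stood at 108 and 144 CPM in HE1 and 130.0 and 128 CPM in HP (0.03 ± 0.15) and was not called. Adgrg1 gave 5.94 and 4.23, and Ccr2 7.40 and 6.07 without HE1 replicates 1 and 2 in turn.

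Antigen presentation and interferon genes had the lowest median of the blood lists, with 12 of 40 higher and 1 lower and a median of 0.51. Ifitm1, an antiviral membrane protein, rose from 1.68 and 4.69 to 21.7 and 14.6 CPM (2.49 ± 0.45), below its level in HB (38.9 CPM). B2m, the light chain of class I molecules, read 62.8 and 48.6 CPM in HE1 and 51.1 and 37.7 CPM in HP (-0.33 ± 0.19, not called). The number of higher genes fell to 2 without HP replicate 1 and to 4 without HE1 replicate 2. Ifitm1 gave 1.98 and 3.43 without HE1 replicates 1 and 2 in turn.

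Genes of growth had small positive medians, and most members were not called. Of 48 genes for DNA replication and division 6 were called higher and 2 lower, but 36 were higher at an adjusted p under 0.05 with no fold limit, where 11.0% of all tested genes were. The median was 0.76, with Mcm5 at 0.79 ± 0.18 and Top2a at 0.76 ± 0.21 (called without HE1 replicate 1, 1.09). E2f2, an E2F factor of red cell precursors, rose most, from 15.5 and 11.2 to 59.4 and 55.4 CPM (2.11 ± 0.21), and Ccnd1, the cyclin D of adherent cells, fell from 205 and 199 to 39.6 and 47.6 CPM (-2.21 ± 0.51; not called without HP replicate 1, -2.07). Ccnd3, the cyclin D of blood, read 0.75 ± 0.19. The CDK inhibitor Cdkn1c (p57) fell from 40.4 and 49.6 to 15.8 and 9.31 CPM (-1.84 ± 0.29). Without HE1 replicate 1 the count of higher genes was 19, and without HP replicate 1 it was 3. For MYC and ribosome biogenesis edgeR, limma-voom and DESeq2 each called 0 of 36 genes at 2-fold, although by edgeR an unadjusted p below 0.05 was reached by 21 higher and 3 lower genes, where 17.7% of all tested genes were higher and 20.9% lower. Their median was 0.46, and Npm1 and Ncl gave 0.48 ± 0.24 and 0.68 ± 0.22.

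In many families some members were called higher in HP and others lower. Over all tested genes 5.35% were called higher and 11.2% lower, and no family was tested against these shares. The pairs given here were chosen after their values were seen, among genes named by rule. The GTPase activating protein Arhgap31 fell from 359 and 209.6 to 21.2 and 48.1 CPM (-3.04 ± 0.44) and Arhgap30 rose from 0.841 and 1.45 to 18.4 and 15.4 CPM (3.86 ± 0.33). In the whole family 11 of 33 were higher and 6 lower. Among the guanine exchange factors of the Arhgef, Dock and Vav families 6 of 40 were higher and 13 lower: Arhgef15, the endothelial one, fell from 237 and 178 to 3.85 and 21.6 CPM (-4.04 ± 0.81), and Dock2, which moves leukocytes, rose from 0.715 and 0.297 to 24.0 and 18.0 CPM (5.41 ± 0.50) while Dock4 fell by 2.70 on the log2 scale (SE 0.48). The RAS activator Rasgrp3, which endothelium uses, fell from 247 and 162 to 13.2 and 31.1 CPM (-3.21 ± 0.52), and Rasgrp2, which platelets use, rose from 15.9 and 13.2 to 69.7 and 55.9 CPM (2.11 ± 0.17, adjusted p = 7.52e-05). Of 19 receptor phosphatases 4 were higher and 7 lower, of 16 non-receptor phosphatases 3 and 3, and of 19 tetraspanins 2 and 7. Ptprm, an adhesive receptor phosphatase, fell by 3.54 and Ptprb by 3.79 on the log2 scale, while Ptprc rose by 5.88 and Ptpre by 2.67. Of the cytosolic ones, Ptpn14 fell by 1.26 and Ptpn6 (SHP-1) rose from 15.9 and 10.8 to 135 and 96.4 CPM (3.12 ± 0.28). Tspan18 fell from 237 and 194 to 39.8 and 43.6 CPM (-2.37 ± 0.22) and Tspan32 rose from 9.33 and 4.03 to 126 and 109 CPM (4.15 ± 0.34). Integrin subunits, 28 of them tested, were 8 higher and 7 lower. Arhgap31 gave -2.55 and -3.73, Arhgef15 -3.25 and -5.73, Rasgrp3 -2.70 and -3.93, and Ptprm -2.97 and -4.41 without HP replicates 1 and 2 in turn. Dock2 gave 6.15 and 4.87, and Tspan32 4.89 and 3.65 without HE1 replicates 1 and 2 in turn.

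**Figure D3:**
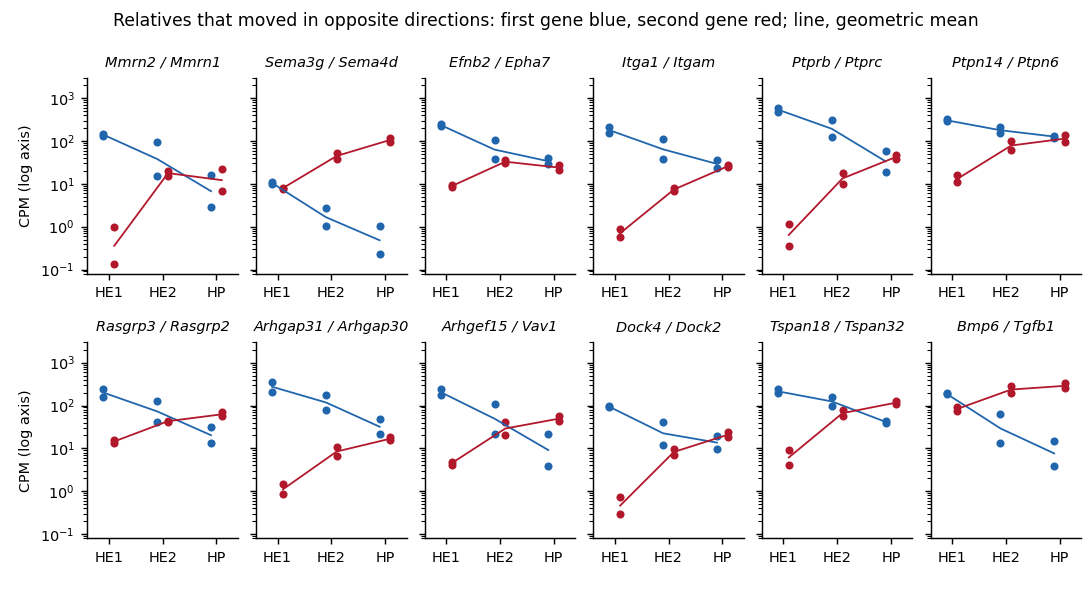
CPM (log axis) of 12 pairs of related genes in the HE1, HE2 and HP libraries, 1 point per library, with the gene named first in blue, the second in red, and lines through the geometric means. In Arhgap31 and Arhgap30, for example, the blue gene fell from 359 and 209.6 CPM to 21.2 and 48.1 CPM as the red gene rose from 0.841 and 1.45 CPM to 18.4 and 15.4 CPM.

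The largest changes among genes at 9 CPM or more reached well beyond these lists. Of the 10 largest rises, Cytip, a regulator of leukocyte adhesion, went from 0.210 and 0.0660 to 17.7 and 13.4 CPM (6.85 ± 0.69), Fgl2, a secreted immune regulator, from 0.757 and 0.165 to 43.1 and 50.4 CPM (6.73 ± 0.54), and the chemokine Ccl9 from 1.22 and 0.561 to 64.5 and 64.1 CPM (6.20 ± 0.38). With 7 counts in all in HE1, Cytip had an HP to HE1 ratio of 123 (95% exact interval 59.5 to 306), covering counting error only. The adhesion molecule Chl1, better known from neurons, rose from 0.462 and 0.297 to 36.8 and 24.4 CPM (6.34 ± 0.70). Evi2 and Evi2b, which share 98.5% of the exon bases of Evi2b and so count largely the same reads, rose by 6.22 and 6.21 on the log2 scale. The histone gene Hist1h2aj rested on 1 library, at 226 and 4.10 CPM in the 2 HP libraries, and was not called under limma-voom (5.08), without HP replicate 1 (1.87) or without either HE1 library (7.45 and 6.13). Without HP replicate 2 Hist1h2aj gave 7.67. Of the 10 largest falls, Sost, an inhibitor of WNT signalling, went from 51.2 and 81.3 to 0.502 and 4.04 CPM (-4.92 ± 1.02), Cyp26a1, which degrades retinoic acid, from 32.3 and 45.7 to 1.23 and 2.51 CPM (-4.41 ± 0.74), and Tmem204, a membrane protein of endothelial junctions, from 42.2 and 41.9 to 0.730 and 2.95 CPM (-4.55 ± 0.88). Lgr6, an R-spondin receptor, went from 14.3 and 6.57 to 0.205 and 0.763 CPM (-4.48 ± 0.72). Sost, Cyp26a1, Pdlim3 and Tnnt2 read higher in HE1 replicate 2, the library with more mesenchymal and pluripotency transcripts, than in replicate 1. Pdlim3, of muscle Z-discs, read 123 and 365 CPM in HE1 and 4.38 and 13.3 CPM in HP (-4.80 ± 0.76). Cardiac troponin Tnnt2 read 16.0 and 74.2 CPM in HE1 and 1.64 and 2.80 CPM in HP (-4.36 ± 0.83), gave -2.86 without HE1 replicate 2 and was not called without HP replicate 1 (-3.99). Sost gave -4.02 and -7.01, Tmem204 -3.81 and -5.82, Lgr6 -3.76 and -5.63, and Pdlim3 -4.17 and -5.77 without HP replicates 1 and 2 in turn. Cytip gave 7.83 and 6.19, Fgl2 8.14 and 5.94, Ccl9 6.86 and 5.72, Evi2 7.27 and 5.56, Evi2b 7.40 and 5.5, and Lgr6 -3.79 and -4.95 without HE1 replicates 1 and 2 in turn. Pdlim3 gave -5.35 and -3.81, and Tnnt2 -5.05 and -2.86 without HE1 replicates 1 and 2 in turn.

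**Figure D4:**
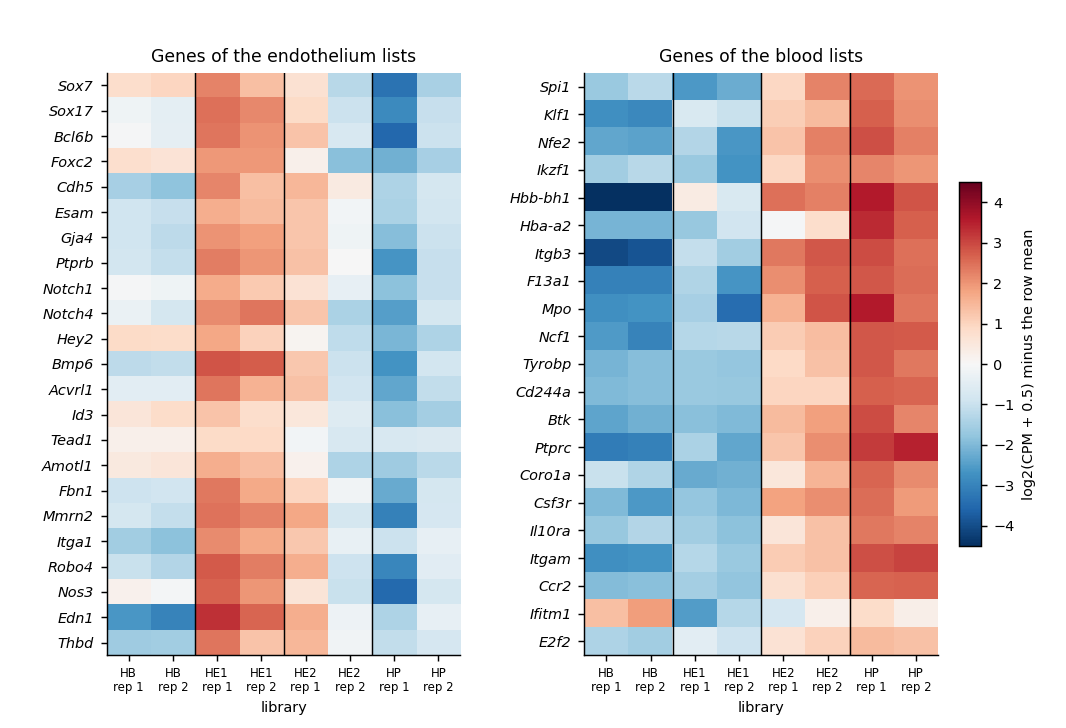
Colour shows log2(CPM + 0.5) minus the mean of its row for 23 named genes of the endothelium lists (left) and 21 of the blood lists (right) in the HB, HE1, HE2 and HP libraries, with values past the ends of the scale drawn in the end colours. The genes were taken from those called lower (left) and higher (right) in HP, so the contrast of HE1 and HP is their choice and the picture adds the other stages. Each of the 23 endothelium-list genes is highest in an HE1 library, and 20 of the 21 blood-list genes are highest in an HP library, the exception being Ifitm1, which is highest in HB.

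HE2, sorted from the same culture time, and HB, from before it, were set beside the change. Because HE1 is the shared reference, the comparisons are given side by side only. In HE2 against HE1 3.26% of tested genes were higher and 5.38% lower. These shares rest on 737 and 1216 genes, which became 1368 and 2927 without HE1 replicate 1, 368 and 260 without HE1 replicate 2 and 324 and 96 without HE2 replicate 2. Without HE2 replicate 1 they were 1089 and 2118. The blood lists had 165 of 352 genes higher in HE2 (median 1.53) and the endothelium lists 92 of 356 lower (median -0.79). From HE2 to HP edgeR called 0 genes (0%) in the whole table, while 670 higher and 1113 lower genes had an unadjusted p below 0.05. By limma-voom there were 35 higher and 27 lower genes, and by DESeq2 108 and 193. Without HE2 replicate 2 edgeR called 50 higher and 476 lower. The medians of HP against HE2 were 0.55 for the blood lists and -0.45 for the endothelium lists. The 2 HE2 libraries lay apart in endothelial genes, with 81.6 and 12.3 CPM for Notch4 and 41.5 and 6.5 CPM for Robo4. Endothelial markers summed to 3379.9 and 2056 CPM in them.

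In the step before the transition, HE1 against HB, 12.7% of tested genes were higher in HE1 and 8.19% lower. The number of higher genes, 2872, was 1857 without HB replicate 1 and 1469 without HB replicate 2. Of the 356 endothelium genes 156 were higher and 42 lower in HE1, with medians of 2.21 for fibrinolysis, anticoagulation and vessel tone, 2.11 for junctions and 1.39 for matrix. Edn1, for example, was at 1.80 CPM on average in HB, and Pecam1 at 36.1 CPM. Others, such as Kdr at 1119.8 CPM and Efnb2 at 219 CPM, were at such levels in HB already, and Cyp26a1 was at 214 CPM there. Against HB the axon guidance list had 15 of 63 genes higher, 17 lower and a median of -0.36. The blood lists had 136 of 352 genes higher and 27 lower and a median of 1.05, and DNA replication genes had a median of -0.65 against HB.

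**Figure D5:**
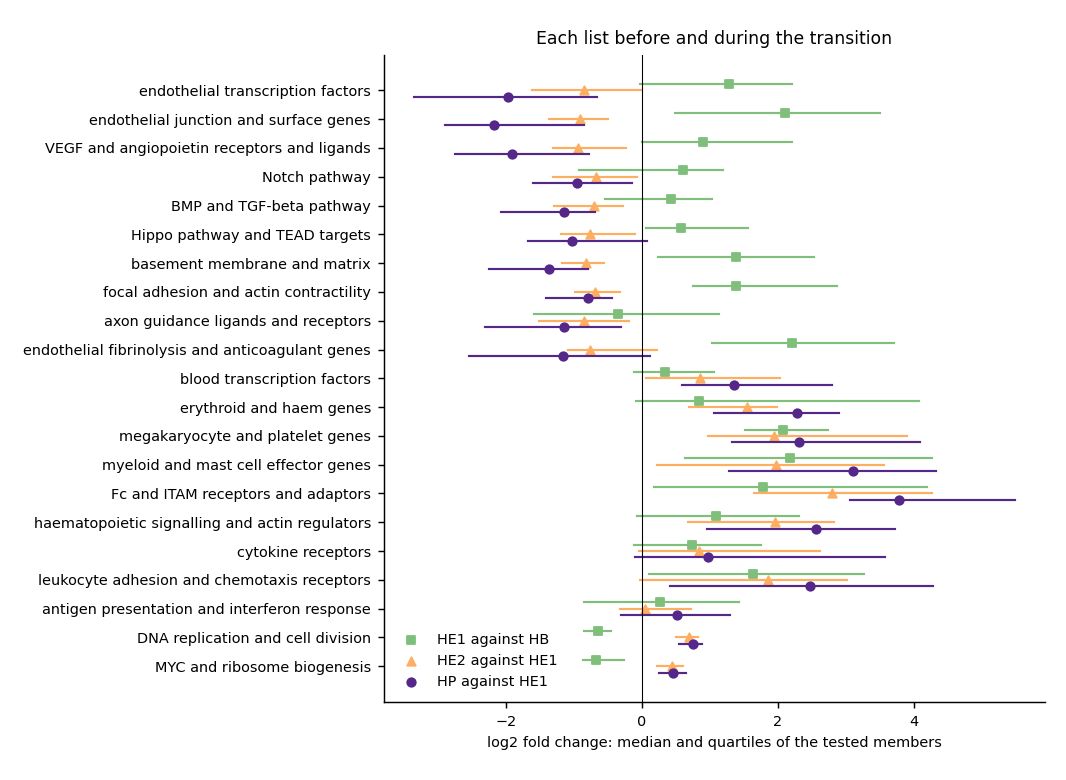
Median (symbol) and quartiles (line) of the log2 fold change of the tested members of each list for HE1 against HB, HE2 against HE1 and HP against HE1. Matrix genes stand at a median of 1.39 in HE1 against HB and -1.36 in HP against HE1, and the 3 comparisons share libraries, so their medians are not independent.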

How the data were processed

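RNA-seq was analysed for the 2 HE1 and 2 HP libraries, with the ES, HB and HE2 libraries in the same fit. The authors removed ribosomal reads with RiboDetector, trimmed with Trimmomatic, aligned to mm10 with HISAT2 2.2.1 and counted strand-specific fragments per gene with featureCounts 2.0.1 against Ensembl release 102. The deposited tables hold these raw counts, not normalized, which were read here from column 7. Overlapping genes each received a shared read and multi-mapped reads were not counted, so near-identical copies (globins) and overlapping genes are uncertain. The authors' table of stage means was not used.

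Counts were analysed in edgeR 4.0.16 (R 4.3.3) with TMM sizes, filterByExpr on stage and the quasi-likelihood test with stage as the only term, Benjamini-Hochberg adjusted over 22596 tested of 55487 genes. A call needed an adjusted p under 0.05 and a 2-fold change. CPM used the TMM effective sizes, and the SE of a log2 fold change was its size over the root of the F statistic. Total counts ran from 24920434 to 58782055 per library, so 3 counts equal 0.0510 to 0.120 CPM, and intervals cover counting error only. The members, gene lists and comparisons were chosen with earlier results of these data known. Named genes were the 4 given markers, the sort antigens, the 10 largest rises and falls among called genes with a mean of at least 9 CPM in either stage and no overlap between stages, up to 3 per list and 2 per family in each direction, the not-called members of highest level, and all marker genes, and not all of them are given in the text. Alternatives were limma-voom 3.58.1, DESeq2 1.42.0, other library sizes, no filter, the 4 libraries alone, a replicate block, other fold limits and leaving out each library. Promoters came from a RefSeq table of GRCm38.p6, and motifs were searched as letters on both strands. Spi1, Tyrobp, Tead1, Sox7, Sox17, Cdh5, Esam, Icam2, Nos3, Rac2 and Nfe2 had no entry. Figures were drawn with matplotlib 3.10.9.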

Additional observations from a re-analysis of the deposited data

How the results depend on the processing

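Of 205 called named genes 1, Tdgf1, changed sign under an alternative tried. Under every alternative except the 4-fold limit and the leave-one-out fits 191 stayed called, and 151 stayed called in every leave-one-out fit. The fold change moved by over 1.5 times for 63 of the 205 without 1 of the HP libraries and for 67 without 1 of the HE1 libraries. With 2 libraries per stage and a stage that is reduced to 1 library in those fits, the lone library is assumed to vary like the others. No paired analysis was used as the main fit because the labels do not say that equal replicate numbers share a culture, and the differences between replicates 1 and 2 in HE1 and in HP correlated at 0.133 across genes. With a replicate block 1099 genes were higher and 2137 lower in HP against HE1, against 1210 and 2525 without it, and in HE2 against HE1 the lower genes went from 1216 to 766.

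In HP against HE1 the counts were 671 higher and 1415 lower at a 4-fold limit and 2495 higher and 3142 lower (13.9% of tested genes) with no fold limit. The leave-one-out fits gave 770 to 1777 higher and 1135 to 3683 lower. In HE2 against HE1 they gave 324 to 1368 higher and 96 to 2927 lower, and 2864 lower without the filter. In HP against HE2 they gave 0 to 50 higher and 0 to 476 lower, limma-voom 35 and 27, DESeq2 108 and 193, and edgeR without the filter 145 and 389. In HE1 against HB they gave 1469 to 3377 higher. The cause of these shifts was not tested.

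At the 4-fold limit the endothelium lists together held 97 lower genes, with 5 for Notch, 9 for BMP and TGF-beta, 3 for Hippo, 15 for matrix, 3 for focal adhesion and 19 for axon guidance. Higher genes at that limit were 12 blood transcription factors, 6 antigen and interferon genes and 1 DNA replication gene. With no fold limit 27 BMP and TGF-beta and 27 focal adhesion genes were lower, and 36 DNA replication and 13 MYC genes were higher. The fit of only the 4 libraries left 7 antigen and interferon genes. Leave-one-out ranges were 6 to 12 for Notch, 21 to 31 for axon guidance, 17 to 25 for megakaryocyte genes, 2 to 13 for antigen and interferon genes, 3 to 19 for DNA replication and 0 to 1 for MYC genes.

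Among named genes that were not called, the sign of a small log2 fold change turned in some fits. Vegfb gave 0.0074 under limma-voom, 0.0081 without the filter and 0.016 with sizes that leave out the 20 genes with the most counts. Cd247 gave 0.0028 and 0.0092 under the latter pair, and Cd44 gave -0.022 with total counts. The lowest and highest leave-one-out values were, for Acta2 -0.95 to 0.14, Actc1 -1.21 to 0.57, Amot -0.13 to 0.59, Cd247 -0.26 to 0.36, Cd44 -0.13 to 0.25, Cd68 -0.24 to 0.60, Col1a1 -1.20 to 0.70, Cyba -0.47 to 0.10. They were, for Des -0.11 to 0.65, Ets2 -0.84 to 0.61, Fli1 -0.76 to 0.092, Hmga2 -0.039 to 0.83, Ifnar1 -0.54 to 0.25, Maml1 -0.47 to 0.030, Myl4 -0.98 to 0.16, Pdgfrb -0.35 to 0.31, and for Pgf -1.87 to 0.068, Postn -0.46 to 0.67, Prrx1 -2.89 to 1.32, Thbs1 -0.046 to 0.55, Vav3 -0.056 to 0.60, Vegfb -0.090 to 0.11, Vegfc -0.22 to 0.53. The called gene Tdgf1 ranged from -3.70 to 0.16, the latter without HE1 replicate 2.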

Other observations

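Gene families outside the pathway lists are given here beside the shares of all genes called higher and lower, 5.35% and 11.2%. HOX genes, which set position along the body axis, had 10 of 25 tested members lower in HP and the other 15 not called, with a median log2 fold change of -2.42. Hoxb5 went from 15.3 and 4.79 CPM in HE1 to 0.502 and 1.21 CPM in HP (-3.57 ± 0.64) and Hoxb3 from 13.2 and 7.06 to 1.07 and 1.30 CPM (-3.10 ± 0.52). Of 18 SOX factors 10 were lower and the other 8 not called. Among 360 Zfp zinc finger genes 23 were lower, a share of 6.39% with a median of -0.02. The lectin-like CD300 and CLEC receptors had 16 of 24 higher and 2 lower, among them Cd300a, an inhibitory receptor, from 1.01 and 1.32 to 15.2 and 11.6 CPM (3.52 ± 0.32), and Clec1a, an endothelial lectin, from 13.9 and 13.0 to 0.319 and 1.59 CPM (-3.85 ± 0.93), which was not called without HP replicate 1 (-3.07). Hoxb5 gave -3.04 and -4.30, and Clec1a -3.07 and -5.37 without HP replicates 1 and 2 in turn. Hoxb5 gave -2.48 and -4.18 without HE1 replicates 1 and 2 in turn.

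Solute carriers had 36 of 296 higher and 39 lower. Slc16a10, an aromatic amino acid transporter, rose from 6.35 and 4.65 to 85.4 and 69.3 CPM (3.82 ± 0.28), and Slc1a2, a glutamate transporter, fell from 45.9 and 10.1 to 0.616 and 2.19 CPM (-4.35 ± 0.97). Without HP replicate 1 Slc1a2 was not called (-3.66), and without HE1 replicate 1 it gave -2.84. Trim58, a ubiquitin ligase of late red cell precursors, rose from 0.294 and 0.0660 to 12.4 and 5.81 CPM. It had 9 counts in all in HE1, and its ratio of HP to HE1 was 57.8 (95% exact interval 30.3 to 127), covering counting error only. Its log2 fold change was 5.07 and 6.17 without HP replicates 1 and 2 in turn, and 7.06 and 4.94 without HE1 replicates 1 and 2. Of 36 kinesins 5 were higher and 6 lower, with the mitotic Kif14 at 1.16 ± 0.17 and the neuronal Kif5c at -2.04 ± 0.43, not called without HE1 replicate 2 (-1.36). Kif5c gave -2.47 without HE1 replicate 1. Cytosolic ribosomal protein genes had a median of 0.42 over 88 genes with 2 lower and the other 86 not called. Slc1a2 gave -3.66 and -5.49 without HP replicates 1 and 2 in turn. Slc1a2 gave -2.84 and -5.07 without HE1 replicates 1 and 2 in turn.

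Clustered protocadherins, adhesion molecules best known from neurons, divided by cluster. All 22 tested genes of the gamma cluster were lower, at -1.71 to -1.49, and these genes share constant exons, so that one read counts for each. Of the beta cluster 6 of 11 were lower. The 14 tested alpha genes lay between 0.14 and 0.76 and were not called. Among gene classes, 14 of 1322 genes that the annotation marks as needing experimental proof (TEC) were higher (1.06%) and 181 lower (13.7%), with a median of -0.72. Of 773 long intergenic RNAs 24 were higher (3.10%) and 69 lower (8.93%), with a median of -0.45. Both of their shares lay below those of all tested genes, 5.35% and 11.2%. For protein-coding genes the counts were 1070 and 2010 of 15825 (6.76% and 12.7%), with a median of 0.03.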
